A study of Mus musculus with 32 samples.

Results

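The genes described here are 29 genes of cholesterol and fatty acid synthesis: 7 of the mevalonate branch, 9 of the steps from farnesyl diphosphate to cholesterol, 5 sensors and transcription factors of the pathway, and 8 of fatty acid synthesis. They were chosen by name from the gene names of an Agilent mouse array, without use of any measured value. They are 29 of the 34821 genes on the array and are covered by 43 of its 55681 probes. All 29 have a probe that stood well above background in all 4 samples of some group, and for 22 of them the probe used was well above background in all 32 samples. The probe used for a gene was the one with the highest variance over all samples among its probes that met this condition, and 18 of the 29 genes have 1 probe only.

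The samples come from young male Balb/c mice without any genetic change named in the sources. C26 colon carcinoma cells, a mouse line from the same strain, were injected into the spleen to give liver metastases, and control mice received PBS. The 8 groups have 4 samples each: control and tumor-associated (TME) endothelial cells (EC and ET), control and TME Ito cells (IC and IT), control and TME Kupffer cells (KC and KT), colorectal cancer primary cells (TP) and tumor liver metastasis cells (TM). The time from injection to isolation is given differently in the study's methods and in its drawing of the design. Liver cells were freed with collagenase, separated on density gradients and by adherence, and cultured for up to a day before use, so that the levels are those of cells after isolation. How the TP and TM cells were obtained is not stated in the methods. The tumors are of 1 cell line, and the liver samples are bulk preparations, in which fewer cells of a type and less RNA per cell cannot be told apart. Every array carried 2 samples: control with TME cells of the same type and number, or TM with TP. Control and TM samples were labelled with Cy3 and TME and TP samples with Cy5 throughout, so the dye and the difference between these pairs cannot be told apart. Slide 1 held the endothelial and Ito arrays, and slide 2 those of the Kupffer and tumor cells.

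Cells build cholesterol from acetyl-CoA through mevalonate, farnesyl diphosphate, squalene and lanosterol. The transcription factor SREBP-2, made from Srebf2, drives the genes of this route, and SREBP-1, made from Srebf1, mainly those of fatty acid synthesis. When sterols are low, the escort protein Scap carries the SREBP precursors out of the endoplasmic reticulum for cleavage, and when sterols are plentiful the Insig proteins hold Scap back. Hepatocytes carry out most of the liver's lipid synthesis, and dividing cells need both sterols and fatty acids for new membranes.

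The promoters of several members hold the letters to which SREBP and its partners are known to bind, and 4 are shown as examples of promoters that do, from genes on the plus strand that were higher in the tumors than in Kupffer cells in both comparisons below. They were chosen after the matches were seen, and 7 other members that meet the same conditions are not shown, among them Acaca and Elovl6, whose windows hold none of the 4 strings searched. A promoter sequence of RefSeq on build GRCm38.p6 was at hand for 24 of the 29 genes, as 32 windows from 250 bases before to 50 after a start site, out of 32851 windows of all genes. Searched on both strands were TCACNCCAC (a sterol regulatory element), CCAAT (read as ATTGG on the other strand, the NF-Y box), CACGTG (an E-box) and GGGCGG (a GC box). No string contains another. The 250 bases before the start sites of Hmgcs1 (chr13:119690101-119690350), Mvk (chr5:114444019-114444268), Idi1 (chr13:8885356-8885605) and Insig1 (chr5:28071162-28071411) read as follows, 5′ to 3′ on the plus strand, with matches to the first 3 strings in capitals.
Hmgcs1: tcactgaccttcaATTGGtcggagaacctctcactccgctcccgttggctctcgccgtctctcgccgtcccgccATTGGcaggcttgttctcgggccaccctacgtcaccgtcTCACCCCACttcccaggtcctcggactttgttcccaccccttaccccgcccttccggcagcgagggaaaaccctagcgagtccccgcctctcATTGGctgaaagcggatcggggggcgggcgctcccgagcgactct
Mvk: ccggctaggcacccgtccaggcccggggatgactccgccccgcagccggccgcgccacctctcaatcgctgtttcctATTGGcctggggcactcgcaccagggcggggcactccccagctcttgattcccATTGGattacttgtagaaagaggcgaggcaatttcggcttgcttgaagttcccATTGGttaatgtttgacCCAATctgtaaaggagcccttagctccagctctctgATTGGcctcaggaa
Idi1: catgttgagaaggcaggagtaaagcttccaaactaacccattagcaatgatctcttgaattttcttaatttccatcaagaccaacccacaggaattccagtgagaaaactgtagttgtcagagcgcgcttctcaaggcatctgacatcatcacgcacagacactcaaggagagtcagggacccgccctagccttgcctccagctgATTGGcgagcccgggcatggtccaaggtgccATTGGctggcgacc
Insig1: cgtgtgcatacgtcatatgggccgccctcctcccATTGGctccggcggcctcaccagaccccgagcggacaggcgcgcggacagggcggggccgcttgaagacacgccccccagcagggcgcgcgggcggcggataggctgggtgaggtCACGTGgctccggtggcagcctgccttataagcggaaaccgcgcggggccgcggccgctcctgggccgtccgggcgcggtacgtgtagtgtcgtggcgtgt

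CCAAT was found in 65.6% of the members' windows and in 37.4% of all windows. GGGCGG was found in 68.8% against 35.7% and CACGTG in 21.9% against 7.15%. The longer TCACNCCAC was found in 1 member window, that of Hmgcs1, or 3.12% against 1.24%. These are matches of letters, not measured binding. No promoter entry was at hand for Sqle, Fdft1, Scd1, Scd2 and Fdps.

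Several libraries stood apart from their groups. In Ito and in Kupffer cells, array 4 gave TME minus control differences, over the probes well above background, of the opposite sign to those of arrays 1 to 3 (r with their mean = -0.70 and -0.66, against 0.22 to 0.48 for the other arrays of these cells). Deviations of the library labelled IC4 from the mean of the Ito samples had a median r of 0.73 with the TME libraries of other numbers and -0.60 with the other control libraries. The library labelled KC4 gave 0.63 and -0.55, and IT4 and KT4 leaned to the control libraries likewise (0.55 and 0.56). The labels were kept, and the counts of called members that rest on these cells, with the genes whose call changes, are given with and without array 4. The libraries labelled IT2 and KC3 also differed from their groups, and TM2 and TM3 differed from TM1 and TM4. The markers of the sorted cells were not distinct. The log2 of the summed signal of 8 Ito cell markers lay between 17.04 and 17.99 in IC and between 17.96 and 18.18 in EC. Such sums, used for all marker lists here, add signals on the linear scale, so the brightest genes weigh most. Dcn had a mean log2 signal of 17.35 in IC and 18.07 in EC, while Rgs5 had 11.25 and 10.56. Of these 8 markers 0 were called in IC against EC. Lrat, a defining Ito cell gene, was well above background on 2 of 4 arrays in IC. The Kupffer marker Clec4f had a mean log2 signal of 15.55 ± 0.75 (SD, n = 4) in KC, 14.82 ± 0.74 in IC and 12.81 ± 0.01 in EC. Of 6 epithelial markers, Epcam, Krt19 and Cdh1 were well above background in none of the TM samples. Krt8 was so in 2 of the 4 and Krt18 and Cldn7 in all 4, and these last 2 were so in all liver samples too.

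The 29 genes showed 3 broad patterns over the 8 groups. Most were highest in the tumor cells: in 21 of the 29 genes, 8 of the 9 squalene to cholesterol genes among them, every TP library lay above every liver library, against 14.0% of all genes. The stearoyl-CoA desaturases Scd1 and Scd2 were far higher in both tumor groups and had different orders among the liver cells. The probe used for Srebf2 had the reverse pattern, lowest in the tumors. Levels between slides 1 and 2 are shown as a description only.

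**Figure D1:**
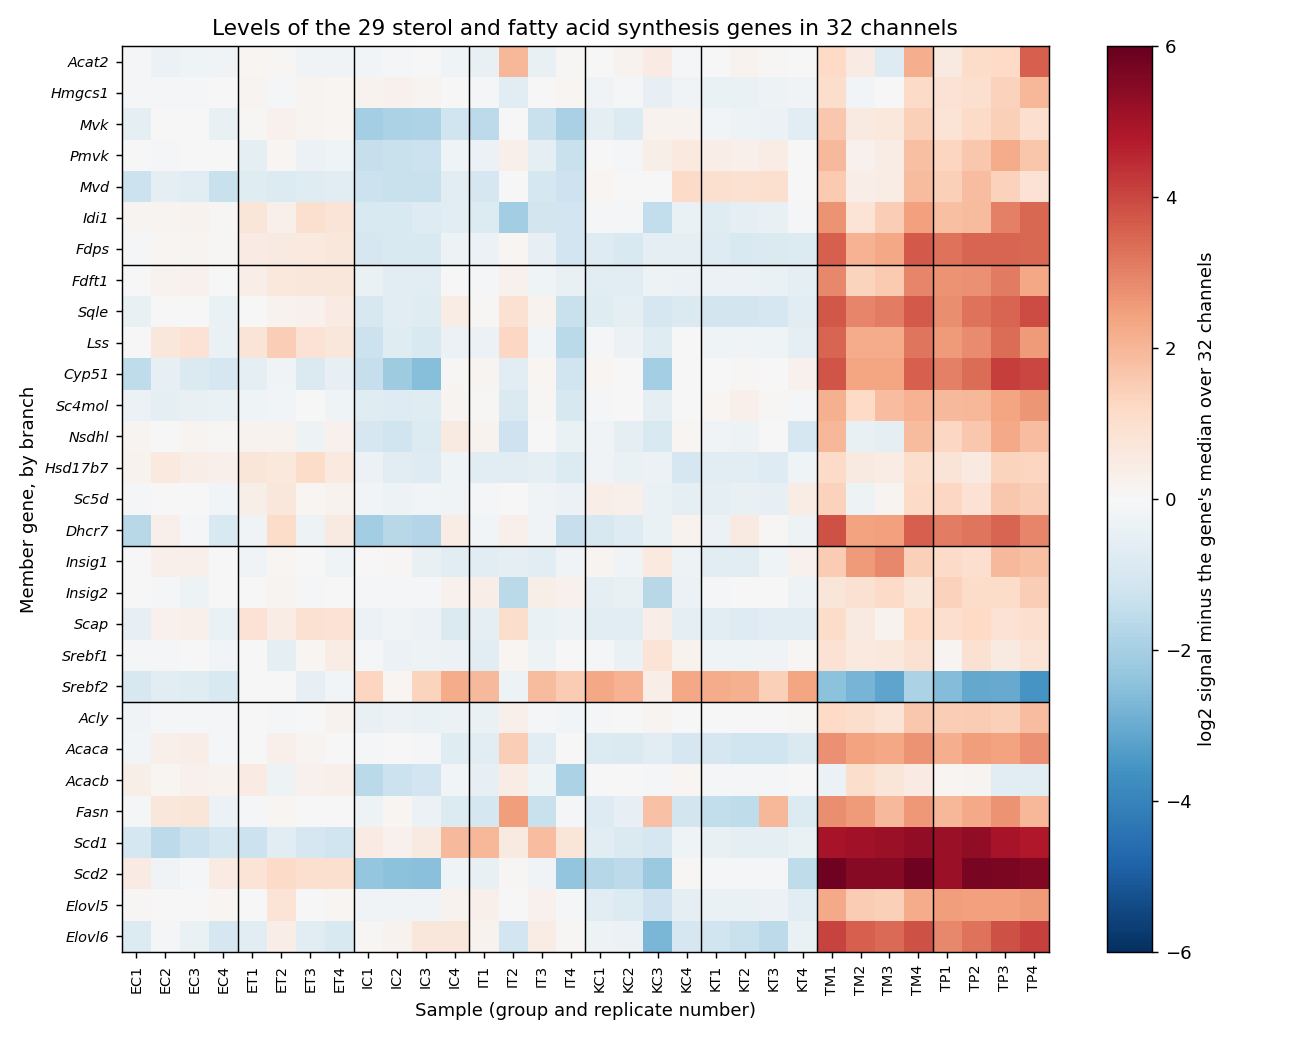
Each cell is the log2 signal of 1 gene (rows, by branch of the pathway) in 1 sample (columns, by group and replicate number) minus the gene's median over the 32 channels, red for higher and blue for lower. The 8 tumor columns at the right are red for most genes, with the deepest red for Scd1 and Scd2 and blue for the probe used for Srebf2.

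The tumor cells were compared with the Kupffer cells of the same slide and the same dye. In TM against KC, 23 of the 29 genes were higher and 1 was lower at an adjusted p under 0.05 (limma, Benjamini-Hochberg over all probes), and over all 34821 genes 25.0% were called higher and 19.2% lower. In TP against KT, 26 were higher and 1 lower, against 27.4% and 21.1% over all genes. The median difference of the 29 genes was 1.96 on the log2 scale in TM against KC and 2.14 in TP against KT, where the medians over all genes were 0.07 and 0.09. The median by branch was 0.90 and 1.54 in the mevalonate branch, 2.67 and 3.15 from squalene to cholesterol, and 3.03 and 3.22 in fatty acid synthesis. At the study's limits, an adjusted p under 0.001 and a 4-fold difference, 14 and 15 members were called, against 17.9% and 19.9% of all genes. Without array 4 of the Ito and Kupffer cells 26 members were called in TM against KC, where 24.0% of all genes were called higher and 18.9% lower, and 26 in TP against KT, against 26.1% and 20.8%. Scaling to the 75th percentile without the quantile step moved the median of all genes by 0.41 and 0.48 on the log2 scale, and the medians of the members were then 2.09 and 2.05.

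Among the fatty acid genes the largest differences were in the desaturases, which place the first double bond in saturated fatty acyl chains. Scd2 had log2 signals of 6.98, 7.14, 6.47 and 8.77 in KC1 to KC4 and of 14.53, 14.14, 14.14 and 14.54 in TM1 to TM4. In KT1 to KT4 it stood at 8.62, 8.60, 8.62 and 7.17 and in TP1 to TP4 at 13.89, 14.39, 14.36 and 14.26. Every tumor library was thus more than 5 log2 units above every Kupffer library, and the groups did not overlap. The fitted difference was 7.00 ± 0.50 (SE) or 128-fold in TM against KC (adjusted p = 4.2e-12, limma) and 5.97 ± 0.50 or 62.8-fold in TP against KT (adjusted p = 8.2e-11). Scd1, the desaturase known as the main form of liver and fat, had log2 signals of 6.24, 6.05, 5.90 and 6.65 in KC and of 11.85, 11.99, 12.12 and 12.26 in TM. It stood at 6.47, 6.34, 6.37 and 6.53 in KT and at 12.13, 12.27, 11.86 and 11.71 in TP. The replicates of each group lay within 1 log2 unit, and the differences were 5.84 ± 0.30 (57.4-fold) and 5.56 ± 0.30 (47.3-fold).

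Elovl6 lengthens the palmitate made by fatty acid synthase to stearate, the substrate of the desaturases. Its log2 signals were 5.86, 5.82, 3.42 and 5.18 in KC and 10.22, 9.75, 9.59 and 10.01 in TM. In KT they were 4.98, 4.82, 4.58 and 5.77 and in TP 9.05, 9.42, 9.97 and 10.29. The low value is that of KC3, where the probe was not well above background. The differences were 4.82 ± 0.43 (28.2-fold) in TM against KC and 4.64 ± 0.43 (25.0-fold) in TP against KT. Acaca, the acetyl-CoA carboxylase that commits acetyl-CoA to fatty acid synthesis, was higher by 3.37 ± 0.29 and 3.52 ± 0.29, and 3 of its 4 probes were called higher in both comparisons. Acly, which makes cytosolic acetyl-CoA from citrate, was higher by 1.13 ± 0.14 and 1.55 ± 0.14, and its second probe by 0.48 in TM against KC and, without a call, by 0.18 in TP against KT. Acacb, the carboxylase of the mitochondrial surface that restrains fatty acid oxidation, was the only fatty acid gene of the 8 without a call in either comparison (0.44, 95% interval -0.27 to 1.16, and -0.15, -0.87 to 0.56).

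Fasn, the fatty acid synthase itself, varied most among the Kupffer libraries. It had log2 signals of 4.33, 4.60, 6.87 and 3.98 in KC and of 3.60, 3.56, 7.07 and 4.27 in KT, so that array 3 was high in both groups. In the tumors it lay between 7.04 and 7.86. The difference was 2.61 ± 0.69 in TM against KC (adjusted p = 0.0031, limma) and 2.70 ± 0.69 in TP against KT (adjusted p = 0.0020), and in the latter the groups overlapped. In KT the Fasn probe was well above background on 2 of 4 arrays. Over 18 alternative runs the difference lay between 1.26 and 3.42 in TM against KC, with the call kept in 15. In TP against KT it lay between 1.16 and 3.74, with the call kept in 17. Elovl5, an elongase of polyunsaturated fatty acids, was higher by 2.69 ± 0.19 and 2.93 ± 0.19.

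In the mevalonate branch the largest difference was in Fdps, which makes farnesyl diphosphate. Its log2 signals were 9.99, 9.85, 10.18 and 10.20 in KC and 14.35, 12.82, 13.04 and 14.43 in TM. In KT they were 9.95, 9.81, 9.88 and 9.90 and in TP 13.98, 14.23, 14.25 and 14.19. The Kupffer libraries lay close together, and TM2 and TM3 were below TM1 and TM4. The differences were 3.60 ± 0.27 (12.2-fold) and 4.27 ± 0.27 (19.4-fold). Idi1, which isomerises isopentenyl diphosphate, was higher by 2.38 ± 0.37 and 2.98 ± 0.37, and the mevalonate kinase Mvk by 1.31 ± 0.32 and 1.46 ± 0.32. Hmgcs1, the synthase that opens the route, was higher by 0.76 ± 0.24 and 1.63 ± 0.24, and Pmvk by 0.90 ± 0.34 and 1.41 ± 0.34. The acetyl-CoA acetyltransferase Acat2 differed by 0.62 ± 0.53 in TM against KC without a call and was higher by 1.54 ± 0.53 in TP against KT. The decarboxylase Mvd was called in neither (0.75 ± 0.34 and 0.66 ± 0.34).

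From squalene to cholesterol, 7 of the 9 genes were higher in TM than in KC and all 9 in TP than in KT. Sqle, the squalene epoxidase and a rate-limiting step of this stretch, had log2 signals of 8.32, 8.51, 8.04 and 8.19 in KC and of 12.77, 12.00, 12.13 and 12.71 in TM. In KT they were 7.95, 7.94, 8.06 and 8.37 and in TP 11.86, 12.29, 12.56 and 12.97. All tumor libraries were above all Kupffer libraries, by 4.14 ± 0.33 (17.6-fold) and 4.34 ± 0.33 (20.2-fold) on average. Dhcr7, which carries out the last step to cholesterol, was higher by 3.56 ± 0.49 and 3.19 ± 0.49, and in KC its probe was well above background on 2 of 4 arrays. Over 18 alternative runs the Dhcr7 differences lay between 1.85 and 4.18 and between 1.79 and 3.37. The lanosterol demethylase Cyp51 was higher by 3.50 ± 0.48 and 3.56 ± 0.48, and the lanosterol synthase Lss by 3.09 ± 0.40 and 3.15 ± 0.40. The squalene synthase Fdft1 was higher by 2.67 ± 0.26 and 3.15 ± 0.26, although its second probe, well above background in 15 of 32 samples, was not called and gave -0.87 and -0.60. The methyl sterol oxidase Sc4mol was higher by 1.96 ± 0.24 and 2.14 ± 0.24 and the ketoreductase Hsd17b7 by 1.27 ± 0.20 and 1.58 ± 0.20. Sc5d was higher in TP than in KT by 1.55 ± 0.28 and gave 0.67 ± 0.28 without a call in TM against KC. The probe used for Nsdhl was likewise called in TP against KT (2.14 ± 0.46) but not in TM against KC (1.11 ± 0.46, adjusted p = 0.059), while the second Nsdhl probe, well above background in all 32 samples, was called higher in both, by 1.61 ± 0.36 and 1.09 ± 0.36. The difference between the 2 comparisons was not tested.

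The libraries TM2 and TM3 lay apart from TM1 and TM4 in the sterol genes. Nsdhl had log2 signals of 7.39, 4.96, 4.88 and 7.29 in TM1 to TM4, and Idi1 of 11.39, 9.52, 10.17 and 11.18. Insig1 ran the other way, with 8.71, 9.76, 10.09 and 8.63. The log2 of the summed signal of 6 cycling markers was 12.29 and 12.84 in TM2 and TM3. It was 15.73 and 15.18 in TM1 and TM4 and between 14.82 and 15.69 in TP. Its part in the values of these sterol genes was not tested. Without tumor arrays 2 and 3, a choice made after these values were seen, 28 of the 29 genes were called in TM against KC (23.5% of all genes higher and 17.7% lower) and 26 in TP against KT (26.0% and 19.6%).

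**Figure D2:**
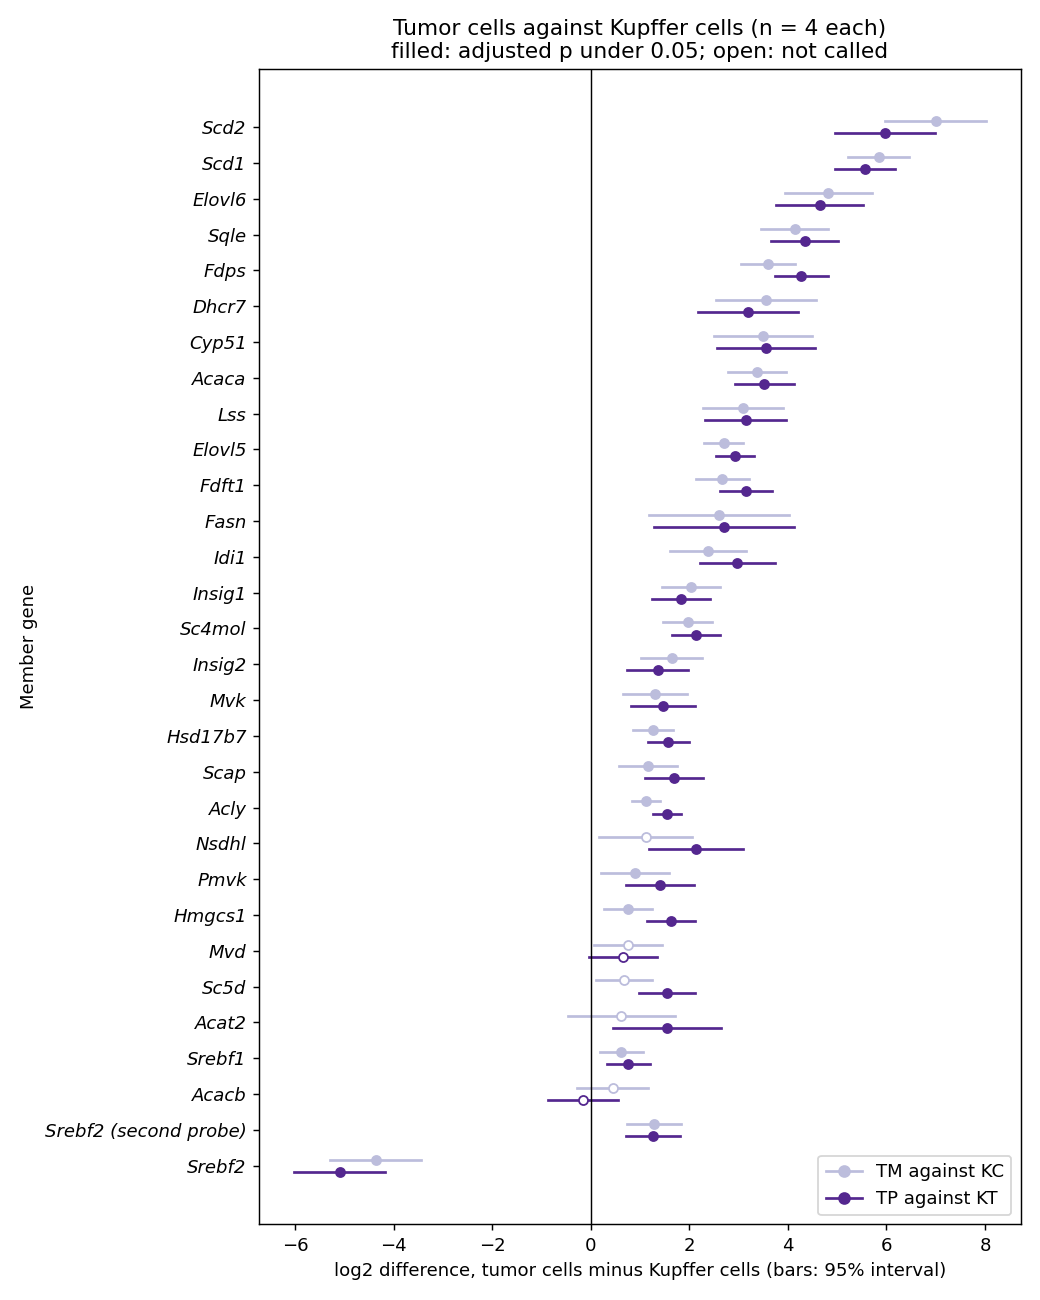
The log2 difference of tumor minus Kupffer cells is plotted for each gene with its 95% interval, light for TM against KC and dark for TP against KT, n = 4 in each group, with open points where the adjusted p was not under 0.05. Scd2, Scd1 and Elovl6 lie at the top, between 4.64 and 7.00, and the pair of Srebf2 probes lie on opposite sides of 0.

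Of the sensors, Insig1 and Insig2, the retention proteins, were higher by 2.04 ± 0.28 and 1.64 ± 0.30 in TM against KC and by 1.83 ± 0.28 and 1.36 ± 0.30 in TP against KT. The escort Scap was higher by 1.16 ± 0.29 and 1.70 ± 0.29. Srebf1 was higher by 0.62 ± 0.21 (adjusted p = 0.022) and 0.76 ± 0.21 (adjusted p = 0.0045).

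The direction for Srebf2, the master gene of sterol synthesis, is uncertain, because its 2 probes disagreed. The probe used lies at chr15:82030068-82030127 of mm9 on the plus strand, and it is shown because it alone gives the fall: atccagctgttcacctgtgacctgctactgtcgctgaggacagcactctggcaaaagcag. No run of 20 bases of it occurs in any other probe of the array. Its log2 signals were 11.65, 11.40, 9.74 and 11.65 in KC and 6.86, 6.55, 6.17 and 7.41 in TM. In KT they were 11.54, 11.47, 10.74 and 11.67 and in TP 6.74, 6.23, 6.29 and 5.77. By this probe all tumor libraries were below all Kupffer libraries, by 4.36 ± 0.45 and 5.09 ± 0.45 on average. The second probe, at chr15:82034765-82034824, was well above background in all 32 samples and stood at 7.16, 6.71, 7.62 and 7.01 in KC and at 8.84, 8.10, 7.89 and 8.79 in TM. It was called higher, by 1.28 ± 0.26 in TM against KC and 1.27 ± 0.26 in TP against KT. The other members with several probes showed no opposite calls.

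**Figure D3:**
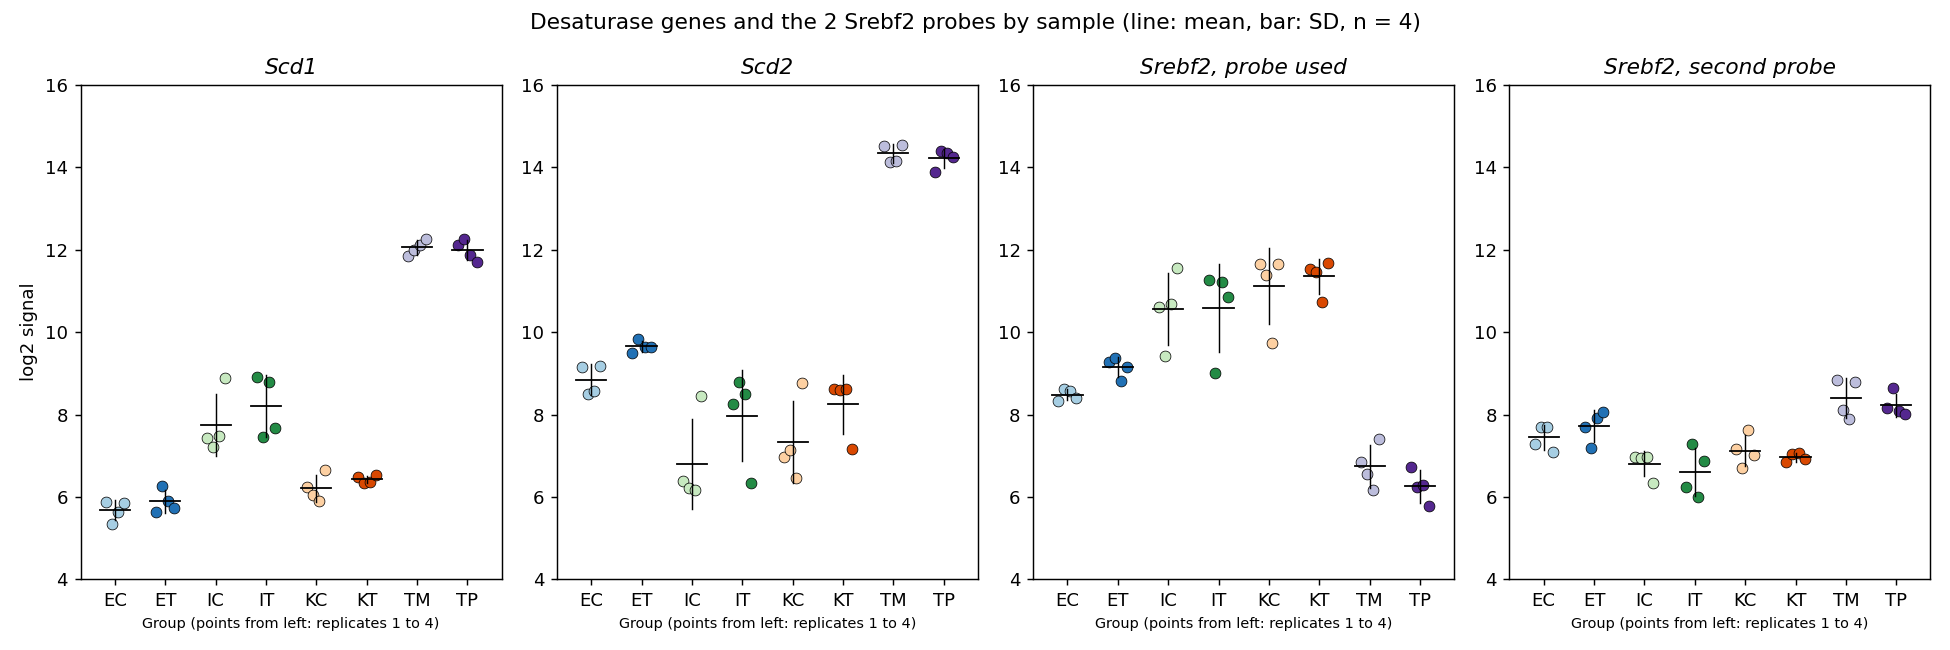
Each point is the log2 signal of 1 sample, with the group mean as a line and the SD as a bar (n = 4), for Scd1, Scd2 and both probes of Srebf2 in the 8 groups. The tumor points of Scd1 and Scd2 lie above all liver points, and the tumor points are the lowest for the Srebf2 probe used and the highest on average for the second probe.

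Markers of other cells moved with the tumor comparisons. The log2 of the summed signal of 8 Kupffer markers lay between 16.19 and 18.95 in KC and between 7.57 and 9.89 in TM. Of these markers 8 of 8 were called lower, and 11 of 12 hepatocyte markers were lower too. Albumin, the defining hepatocyte gene, was well above background in no tumor sample. The 6 cycling markers were all called higher, from sums between 8.27 and 8.71 in KC to between 12.29 and 15.73 in TM. Their part in the differences of the lipid genes was not tested.

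Other genes of the same pathways were called in both directions, beside the 25.0% higher and 19.2% lower of all genes in TM against KC and the 27.4% and 21.1% in TP against KT. Of 16 other sterol genes, 5 were higher and 7 lower in TM against KC, and 5 were higher and 9 lower in TP against KT, with median differences of -0.39 and -0.71. Stard4, a sterol carrier, was higher by 2.88 ± 0.29 and 3.67 ± 0.29, while the cholesterol exporter Abcg1 was lower by 5.48 ± 0.42 and 4.66 ± 0.42, from a mean log2 signal of 14.52 ± 0.41 (SD) in KC. Nr1h3, which encodes the oxysterol receptor LXR alpha, was lower in TM than in KC by 3.70 ± 0.72. Of 22 other lipogenic genes, 12 were higher and 6 lower in TM against KC, and 11 and 7 in TP against KT, with medians of 0.72 and 0.73. The acyl-CoA synthetases moved apart, Acsl3 higher by 3.39 ± 0.20 and 3.61 ± 0.20 and Acsl1 lower by 4.58 ± 0.24 and 5.02 ± 0.24. Of 10 genes of fatty acid oxidation and ketogenesis, 2 were higher and 3 lower in each comparison. Cpt1a, which brings fatty acids into mitochondria, was lower by 1.77 ± 0.20 and 2.15 ± 0.20, and Acadvl, an acyl-CoA dehydrogenase, was higher by 1.25 ± 0.15 and 1.31 ± 0.15.

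Ito cells were compared with endothelial cells of the same slide and dye. In IC against EC, 2 of the 29 genes were higher and 5 lower, against 5.08% and 6.85% of all genes, and in IT against ET likewise 2 were higher and 5 lower, against 4.37% and 5.67%. The median difference was -0.36 and -0.24, where that over all genes was 0.00 in both. Scd1, Scd2, Mvk, Fdps, Hsd17b7 and the probe used for Srebf2 were called in both comparisons, Acacb in the first alone and Idi1 in the second alone. These calls were not stable where 1 replicate number was left out of all groups, which also leaves fewer samples in each group. In these runs 2 to 9 members were called in IC against EC and 3 to 8 in IT against ET. Scd1 was the only member called each time in both. The shares of all genes called in these runs are not given, so whether other genes lost calls likewise cannot be told. Without replicate 3 the calls of Mvk, Fdps, Hsd17b7, Acacb and Scd2 were lost in IC against EC, and those of Mvk, Fdps, Scd2 and the probe used for Srebf2 in IT against ET. The latter 4 were lost without replicate 1 too, as were Fdps, Acacb, Scd2 and Srebf2 in IC against EC. Without replicate 2 the losses were Fdps, Hsd17b7, Acacb and Scd2 in IC against EC and Scd2 in IT against ET, and without replicate 4 they were Mvk, Fdps and Srebf2 in IT against ET. Without array 4 of the Ito and Kupffer cells 2 members were higher and 8 lower in IC against EC, against 6.05% and 8.12% of all genes, with Pmvk, Lss and Dhcr7 added to the 7. In IT against ET 1 was then higher and 4 lower, against 4.29% and 6.08%, and the calls of Fdps and Srebf2 were lost.

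The desaturases went opposite ways. Scd1 had log2 signals of 5.89, 5.35, 5.65 and 5.86 in EC and of 7.43, 7.20, 7.48 and 8.88 in IC. In ET they were 5.63, 6.28, 5.91 and 5.74 and in IT 8.91, 7.46, 8.80 and 7.67. All Ito libraries were above all endothelial libraries, by 2.07 ± 0.30 (4.18-fold, adjusted p = 3.3e-05) and 2.32 ± 0.30 (4.99-fold, adjusted p = 8.1e-06). Scd2 had log2 signals of 9.17, 8.49, 8.57 and 9.17 in EC and of 6.40, 6.21, 6.17 and 8.45 in IC. In ET they were 9.51, 9.83, 9.65 and 9.64 and in IT 8.27, 8.79, 8.50 and 6.35. Here the Ito libraries were lower without overlap, by 2.04 ± 0.50 (adjusted p = 0.0073) and 1.68 ± 0.50 (adjusted p = 0.033), and the exceptions within the groups were IC4 and IT4. Without array 4 of the Ito and Kupffer cells the differences of Scd2 were -2.59 and -1.14, and those of Scd1 1.69 and 2.50.

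The mevalonate kinase gene Mvk had log2 signals of 8.41, 8.93, 8.95 and 8.47 in EC and of 6.91, 7.05, 7.08 and 7.76 in IC. In IT they were 7.38, 8.94, 7.59 and 6.97, with IT2 near the 9.01 to 9.17 of ET. Mvk was lower by 1.49 ± 0.32 in IC against EC and 1.37 ± 0.32 in IT against ET. Idi1 lay between 8.76 and 8.90 in EC and between 7.78 and 8.03 in IC, a difference of -0.96 ± 0.37 that was not called (adjusted p = 0.11). In ET it stood at 9.44, 9.001, 9.65 and 9.47 and in IT at 7.90, 6.63, 7.60 and 7.57, lower by 1.97 ± 0.37 (adjusted p = 0.00088). Fdps was lower by 0.85 ± 0.27 and 1.04 ± 0.27. Hsd17b7 stood at 7.07, 7.44, 7.26 and 7.16 in EC and 6.50, 6.19, 6.10 and 6.63 in IC, lower by 0.88 ± 0.20. In ET it stood at 7.58, 7.47, 7.97 and 7.47 and in IT at 6.23, 6.25, 6.33 and 6.04, lower by 1.41 ± 0.20. For Hsd17b7 no Ito library reached an endothelial library. For Fdps the groups of each comparison did not overlap.

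Acacb had log2 signals of 7.60, 7.37, 7.50 and 7.45 in EC and of 5.66, 5.98, 6.09 and 7.10 in IC, lower by 1.27 ± 0.35 (adjusted p = 0.018). In ET it stood at 7.77, 6.95, 7.50 and 7.54 and in IT at 6.76, 7.69, 6.99 and 5.35, where the groups overlapped and the difference of -0.74 ± 0.35 was not called. For Srebf2 the probes disagreed again. The probe used had log2 signals of 8.34, 8.63, 8.58 and 8.40 in EC and of 10.61, 9.42, 10.67 and 11.55 in IC, higher by 2.08 ± 0.45, and the second probe gave -0.63 ± 0.26 without a call. In ET the probe used stood at 9.28, 9.36, 8.83 and 9.15 and in IT at 11.27, 9.003, 11.21 and 10.84, higher by 1.43 ± 0.45, where the second probe was called lower by 1.12 ± 0.26. Without array 4 of the Ito and Kupffer cells the probe used was no longer called in IT against ET (adjusted p = 0.089, limma).

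**Figure D4:**
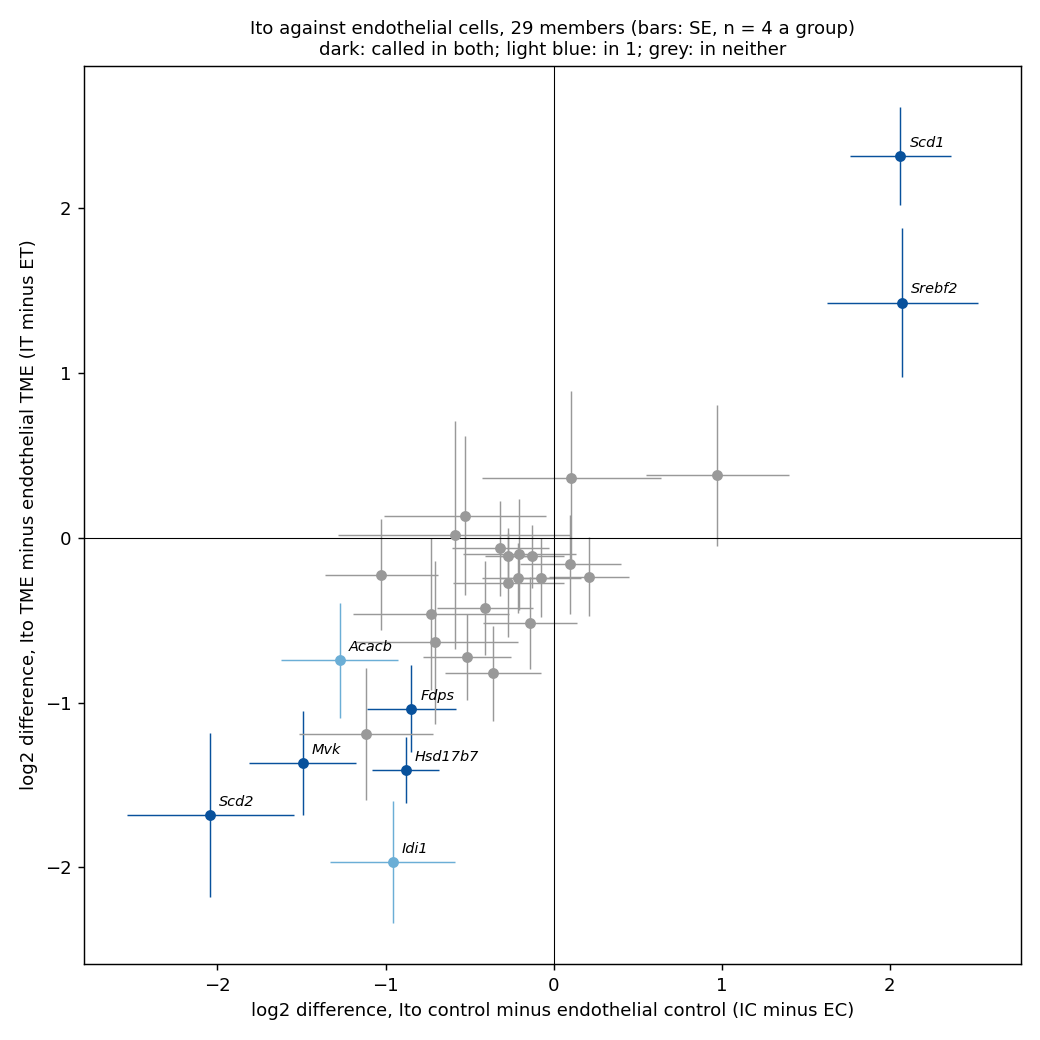
Each point is 1 gene, with the log2 difference of control Ito minus control endothelial cells on the horizontal axis, that of the TME cells on the vertical axis and the SE as bars (n = 4 in each group). Scd1 and the Srebf2 probe used lie at the upper right and Scd2, Mvk, Fdps and Hsd17b7 at the lower left, dark as called in both. The axes share no samples.

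Markers of other cells moved with these comparisons. The log2 of the summed signal of 12 hepatocyte markers lay between 16.97 and 19.07 in IC and between 14.82 and 15.17 in EC. Of these markers 8 of 12 were called higher, and in IT against ET all 12 were called higher. Of 8 Kupffer markers 4 were called higher in IC against EC and 0 in IT against ET, and 3 of 8 endothelial markers were called lower in both. The 4 erythroid markers had sums between 14.76 and 16.65 in IC and between 10.49 and 11.75 in EC. The part of these cells in the differences was not tested. Among the other pathway genes, Stard4 was lower in IC than in EC by 1.37 ± 0.29 and in IT than in ET by 1.19 ± 0.29. Of the 16 other sterol genes 3 were higher and 1 lower in IC against EC, and 2 and 1 in IT against ET. Of the 22 other lipogenic genes 6 were higher and 3 lower, and then 7 and 1, and of the 10 oxidation and ketogenesis genes 2 and then 1 were higher.

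The study asked how liver cells change beside metastases, and none of the 29 genes was called between TME and control cells of any type (limma, adjusted p under 0.05). Over all genes 0.758% were called higher and 0.750% lower in ET against EC, 0.385% and 0.0230% in IT against IC, and 0.494% and 0.0603% in KT against KC. At an unadjusted p under 0.05 there were 1, 3 and 1 of the 29, against 8.90%, 10.6% and 7.55% of all genes. The methods' t-test, with equal variances, gave 12, 0 and 1 at the same level, against 18.2%, 8.93% and 8.80% of all genes. After Benjamini-Hochberg adjustment it gave 1, 0 and 0, against 5.17%, 2.04% and 0.126%. On the log2 scale the median difference of the 29 genes was 0.23 for endothelial, 0.30 for Ito and -0.02 for Kupffer cells.

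In endothelial cells small differences ran mostly one way. The difference was above 0 for 24 of the 29 genes, against 52.5% of all genes, and 10 genes had all TME libraries above all control libraries, against 8.22% of all genes. In the squalene to cholesterol stretch 9, 9, 6 and 9 of the 9 genes were higher on arrays 1 to 4. Scap had log2 signals of 10.71, 11.44, 11.49 and 10.81 in EC and of 12.05, 11.64, 12.10 and 12.05 in ET, a difference of 0.85 ± 0.29 (adjusted p = 0.23, limma). Fdps had signals of 10.69, 10.88, 10.89 and 10.79 in EC and of 11.24, 11.26, 11.34 and 11.40 in ET, a difference of 0.50 ± 0.27 (95% interval -0.05 to 1.04). Scd2 gave 0.81 ± 0.50 with no overlap, and was called once array 4 of the Ito and Kupffer cells was left out of the shared fit (adjusted p = 0.014), when 1.08% of all genes were called higher and 1.06% lower. The log2 of the summed signal of 7 neutrophil markers lay between 11.87 and 13.00 in ET and between 9.81 and 10.25 in EC. That of 6 cycling markers lay between 9.52 and 10.91 in ET and between 8.21 and 8.76 in EC. The sum of 8 Kupffer markers lay between 15.97 and 16.56 in ET and between 15.19 and 15.82 in EC. The sum of the endothelial markers lay between 14.68 and 15.24 in ET and between 15.47 and 15.70 in EC. That of the Ito markers was 17.14 to 17.92 in ET and 17.96 to 18.18 in EC, and both sums were lower in ET without overlap. Over the single markers of these lists the median log2 difference was -0.37 and -0.57. Stab2 (mean log2 signal 11.64 in ET, 10.99 in EC) and Col1a1 (8.02 and 7.86) ran the other way. Of these lists 1 cycling marker was called higher, and 1 endothelial and 2 of 12 hepatocyte markers were called lower. Their part was not tested. Of the other pathway genes Acsl1 alone was called, higher by 1.01 ± 0.24.

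In Ito cells the result turned on array 4. Scd2 was higher in the TME sample by 1.87, 2.57 and 2.33 on arrays 1 to 3 and lower by 2.10 on array 4, which gave 1.17 ± 0.50 over all (adjusted p = 0.42). Cyp51 had log2 signals of 4.46, 3.71, 3.25 and 5.90 in IC and of 6.01, 5.14, 5.92 and 4.63 in IT, so that IC4 was near the TME libraries and IT4 near the control libraries. Dhcr7 had 2.63, 3.05, 2.96 and 5.15 in IC and 4.58, 5.05, 4.51 and 3.34 in IT, though only 3 of these 8 values were well above background. The median of the 29 genes was 0.46, 0.92 and 0.43 on arrays 1 to 3 and -0.59 on array 4.

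Without array 4 of the Ito and Kupffer cells, 7 of the 29 genes were called higher in IT than in IC and none lower, against 4.78% and 4.23% of all genes. They were Scd2 (2.26, adjusted p = 3.5e-07, limma), Cyp51 (1.89), Acacb (1.24), Sqle (1.19), Pmvk (1.12), Scd1 (1.02) and Dhcr7. The Cyp51 probe was well above background on 2 of the 3 IC arrays kept. The Dhcr7 probe was well above background on 2 of the 3 arrays kept in IT and on none in IC, so that its difference has only a bound, at least 1.21-fold. The bound sets the IT mean against the lowest signal well above background on each IC array, or the probe's own signal where higher, from loess and Aquantile values, and is open to dye bias. By the same values Scd2 was 2.62-fold and Cyp51 1.56-fold higher, which is less than by the log2 differences above. Where IT2 and KC3 were left out with their arrays as well, a choice made after their values were seen, 4 were called: Scd2 (2.10), Cyp51 (2.11), Scd1 (1.40) and Sqle (0.99), and 5.70% of all genes were called higher and 4.65% lower. IT2 had by far the highest Ito values of Acat2 (8.29, the others 5.84 to 6.39), Acaca (10.96, the others 8.77 to 9.53) and Fasn (7.59, the others 3.77 to 5.18). The log2 of the summed signal of 6 epithelial markers was 17.22 in IT2 and between 12.21 and 12.67 in the other Ito libraries. The hepatocyte markers moved with array 4 too: their sums were 16.97 to 17.20 in IC1 to IC3 and 19.07 in IC4, and 17.94 to 18.87 in IT1 to IT3 and 17.21 in IT4. The neutrophil markers had sums of 10.33 to 10.50 in IC1 to IC3 and 13.88 in IC4, and of 13.07 to 14.28 in IT1 to IT3 and 10.697 in IT4. The Kupffer markers stood at 16.40 to 16.73 in IC1 to IC3 and 18.68 in IC4, and at 18.40, 14.44, 18.40 and 16.57 in IT1 to IT4. Their part in the lipid genes was not tested.

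In Kupffer cells the differences were small for most of the 29 genes, with 13 above 0, against 51.3% of all genes. Scd2 was higher in the TME sample by 1.64, 1.46 and 2.15 on arrays 1 to 3 and lower by 1.60 on array 4, in all 0.91 ± 0.50 (adjusted p = 0.73, limma). Without array 4 it was higher by 1.75 and was the only member called (adjusted p = 2.2e-05), against 2.20% of all genes called higher and 2.16% lower. Without arrays 3 and 4 of the Kupffer and 2 and 4 of the Ito cells it was higher by 1.55 (adjusted p = 0.00076), against 1.76% of all genes called higher and 1.43% lower. Insig2 had log2 signals of 9.76, 9.89, 8.71 and 10.02 in KC and of 10.27, 10.36, 10.39 and 10.05 in KT. The difference was 0.67 ± 0.30 (adjusted p = 0.62, limma). Its second probe was well above background in all 32 samples and was not called either. That probe stood at 8.49, 8.36, 8.48 and 8.18 in KC and at 8.48, 8.59, 8.34 and 7.98 in KT. The neutrophil markers had sums between 11.58 and 11.98 in KC1 to KC3 and of 13.74 in KC4, against 13.43 to 13.54 in KT1 to KT3 and 11.71 in KT4. Sums of the Kupffer markers were 17.37, 17.34, 16.19 and 18.95 in KC1 to KC4 and 18.43, 18.47, 18.47 and 17.47 in KT1 to KT4. Those of the endothelial markers ran the other way, with 14.56, 14.57, 14.30 and 14.00 in KC and 14.01, 13.98, 14.07 and 14.65 in KT. Their part was not tested.

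With all arrays, none of the 29 genes was called for a difference in its TME change between cell types (limma contrasts of 2 differences, 0 of 29 in each of 3 contrasts). Over all genes 0.158% were called for Ito minus endothelial, 0.126% for Kupffer minus endothelial and 0.00287% for Kupffer minus Ito cells. At an unadjusted p under 0.05 there were 0, 1 and 0 of the 29, against 5.03%, 4.13% and 4.13% of all genes. The 1 gene was Scap, for which the change in Kupffer cells minus that in endothelial cells was -1.13 ± 0.41 (adjusted p = 0.88). Scd2 gave 0.36 ± 0.70 for Ito minus endothelial and 0.11 ± 0.70 for Kupffer minus endothelial cells. These contrasts hold array 4 of the Ito and Kupffer cells. Without it Scd2 was called for Ito minus endothelial cells, with 1.45 ± 0.27 (adjusted p = 0.0046, limma), as 1 of the 29, against 2.07% of all genes. For Kupffer minus endothelial cells Scd2 then gave 0.94 ± 0.27 (adjusted p = 0.16, limma). There and for Kupffer minus Ito cells 0 of the 29 were called, against 0.465% and 0.215% of all genes. At an unadjusted p under 0.05 there were then 6 of the 29 for Ito minus endothelial cells. For Kupffer minus endothelial and Kupffer minus Ito cells there were 5 and 3. The matching shares of all genes are not given.

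**Figure D5:**
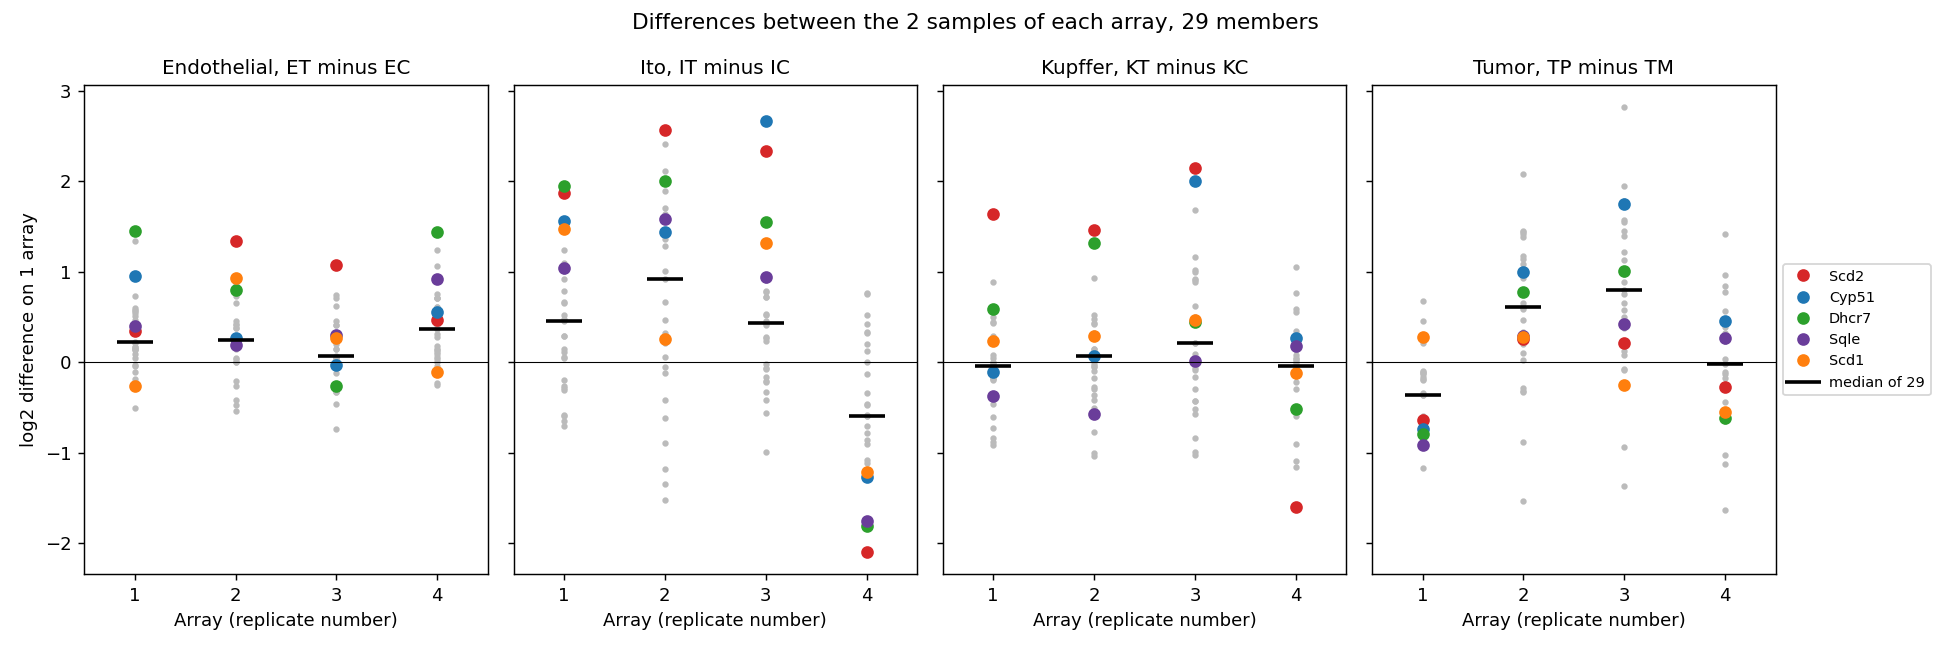
Each point is the log2 difference of 1 gene between the 2 samples of 1 array (TME minus control, or TP minus TM), with 5 genes in colour and the median of the 29 as a line. Scd2 is high on arrays 1 to 3 of the Ito and Kupffer cells and low on array 4, and the tumor medians lie at -0.37, 0.61, 0.80 and -0.02.

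Primary tumor and metastasis cells also showed no called member without a block, against 2.09% of all genes called higher and 0.882% lower in TP against TM. At an unadjusted p under 0.05 there were 8 of the 29, against 16.2% of all genes. The median difference was 0.26, with 7 of 7 mevalonate genes and 9 of 9 squalene to cholesterol genes above 0 and 2 of 8 fatty acid genes, against 49.8% of all genes. The direction turned with arrays 2 and 3, which hold TM2 and TM3. Of the 29 genes 5, 24, 24 and 14 were higher in TP on arrays 1 to 4. Hmgcs1 had log2 signals of 12.44, 11.19, 11.37 and 12.52 in TM and of 12.24, 12.34, 12.76 and 13.35 in TP, a difference of 0.79 ± 0.24 (adjusted p = 0.066, limma), which was called with the array as a block (adjusted p = 0.046). Elovl5 had 11.54, 10.76, 10.69 and 11.48 in TM and 11.74, 11.70, 11.70 and 11.80 in TP, a difference of 0.62 ± 0.19 without overlap (adjusted p = 0.076), the only member of the 29 with no overlap, against 7.39% of all genes higher and 2.87% lower without overlap. Without arrays 2 and 3 the median of the 29 was -0.30, and Hmgcs1 and Elovl5 gave 0.32 and 0.26. Scd1 and Scd2 differed by -0.06 (95% interval -0.68 to 0.55) and -0.11 (-1.13 to 0.91).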

How the data were processed

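RNA of 32 samples was measured on 16 two-colour arrays, 8 on each of 2 slides. The authors deposited the intensity values of Agilent's Feature Extraction program, among them a processed signal with the background subtracted and the dyes balanced, and a table of intensity values per probe and sample. The processed signal of each sample's channel was used. Control spots and outliers were left out, the signal was put on the log2 scale and averaged over the spots of a probe, and quantile normalization, named by the study, was applied over the 32 channels. The deposited table matched these values (largest difference over the 43 member probes 0.102 on the log2 scale) and was used as an alternative. No spot was saturated, and 38.4 to 57.1% of spots per channel were well above background. With 4 arrays a group, their number limits the precision. The methods call the 4 samples biological replicates, but the labels do not tie them to separate animals, so p-values may cover technical spread only.

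Differences were tested with limma 3.58.1 in R 4.3.3 (lmFit, eBayes) in 1 fit of all channels to 8 groups, with Benjamini-Hochberg adjustment over 55681 probes, 55561 of them complete, and calls at 0.05. Data were read with the R package data.table, version 1.17.8, and Python 3.11.15, and plots drawn with matplotlib 3.10.9 and numpy 2.4.6. The members and lists were chosen with earlier results of these data known. Values in every sample are given for members called in a TME comparison and for up to 3 members with the largest rise and 3 with the largest fall among those called in each other comparison. Further members with values per sample, and the libraries singled out, were chosen after their values were seen. In the other pathway lists up to 3 each way were eligible to be named, and not all are given. Probe coordinates are those of the files (mm9). Alternatives were other background corrections and scalings, the deposited table, a detection filter, the array as a replicate block, a fit of the compared groups alone, the methods' t-test, the study's limits (adjusted p under 0.001 and 4-fold) and leaving out arrays. Tested on simulated data of 55561 probes, the fit found 32.8, 70.1 and 98.5% of changes of 1, 2 and 4 on the log2 scale in ET against EC. The simulated noise was normal and independent, around 1 mean per probe for all groups. It held no dye effect and no libraries or arrays that stand apart, so these shares need not hold for the real arrays. Some genes of these pathways are not reported here.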

Additional observations from a re-analysis of the deposited data

Results flagged for a closer look

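Of the 232 groups of 4 values (29 genes in 8 groups), 26 held a sample whose gap to its nearest neighbour, as a share of the group's range, was above the critical value of Dixon's test. Chance flags about 1 in 20 groups, here about 12. The library labelled IC4 was the high sample for Pmvk (gap 0.913 of the range), Mvd (0.929), Fdps (0.853), Sc4mol (0.961), Dhcr7 (0.834), Insig2 (0.853), Scd1 (0.833), Scd2 (0.899) and Elovl5 (0.973). KC4 was the high sample for Mvd (0.908). KT4 was the low sample for Mvd (0.938), Fdft1 (0.914) and Scd2 (0.982) and the high sample for Sc5d (0.917). KC3 was low for Cyp51 (0.937) and for the Srebf2 probe used (0.867) and high for Scap (0.899), and IT2 was low for Insig2 (0.933) and high for Scap (0.853). In the endothelial cells, ET2 was low for Hmgcs1 (0.943) and Scap (0.876) and high for Insig2 (0.904), ET1 was low for Fdft1 (0.832), ET3 low for Nsdhl (0.936) and EC1 high for Pmvk (0.865). KT2 was low for Scap (0.885).

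Fdps was higher in the TME sample on all 4 endothelial arrays and lower on all 4 Kupffer arrays, with mean differences of 0.50 and -0.17 on the log2 scale, which differ by 0.665. The limma contrast of the 2 differences was not called (adjusted p = 1.00).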

How the results depend on the processing

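The direction of the member counts in TM against KC and TP against KT held in every alternative run. There were 19 to 25 and 26 to 27 members called where each replicate number was left out in turn. At the study's limits 14 and 15 were called by limma, against 17.9% and 19.9% of all genes. The methods' t-test called 5 and 13 at these limits, against 2751 and 5619 of the 34821 genes. Counts in IC against EC ran from 2 to 9 over the replicates left out (3 without replicate 1, 3 without replicate 2, 2 without replicate 3), were 11 with only the groups compared in the fit and 1 at the study's limits. In IT against ET they ran from 3 to 8, were 3 with only the groups compared, 3 with the methods' t-test, 1 at the study's limits and 11 without arrays 2 and 4 of the Ito and 3 and 4 of the Kupffer cells. In ET against EC they ran from 0 to 1, were 3 with only the groups compared, 1 with the t-test, 1 without array 4 of the Ito and Kupffer cells and 2 without arrays 2 and 4 of the Ito and 3 and 4 of the Kupffer cells. In IT against IC they ran from 0 to 7, and were 7 and 4 under these last 2 settings, and in KT against KC from 0 to 1, and 1 and 1. In TP against TM they ran from 0 to 1. At the study's limits limma called 334 of 34821 genes higher and 271 lower in IC against EC. In IT against ET it called 268 and 155. The t-test called 1575 genes in IT against ET and 5.17% of all genes in ET against EC. Shares of all genes are not given with 1 replicate left out or with only the groups compared. Nor are they given for the counts of 11 and 2 with 2 arrays of each cell type left out. The cause of the changes in member counts was not tested.

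With the array as a replicate block, TP against TM had 1 call (Hmgcs1, 0.79, adjusted p = 0.046, limma), and no other count of members moved by over 1.5 times. Whether the numbers pair the samples was not settled. The r of deviations from the group means was 0.06 to 0.38 in endothelial and -0.68 to 0.23 in Ito samples. In Kupffer samples it was -0.64 to 0.12 and in tumor samples -0.18 to 0.19. The lowest values in Ito and Kupffer samples (-0.68 and -0.64) were those of array 4, whose libraries stood apart. The consensus correlation between the samples of an array was 0.077. Directions reversed for Cyp51 in KT against KC (-0.024 without arrays 2 and 4 of the Ito and 3 and 4 of the Kupffer cells), and without tumor arrays 2 and 3 for Nsdhl (-0.37) and the median (-0.30) in TP against TM. The median in TP against KT was 1.55 under normexp and quantile normalization and 1.63 under loess and Aquantile. Signal over background limits Dhcr7, Cyp51, Lss, Nsdhl, Elovl6, Fasn and the Srebf2 probe used, which were not well above background on all arrays.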
